A study of Mus musculus with 8 samples.

Results

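Keratins are the intermediate filament proteins of epithelial cells, and the genes described here are the keratins Krt7, Krt8, Krt18, Krt19 and Krt20 with 3 epithelial adhesion genes, Cdh1, Cdh17 and Epcam. They were chosen by symbol and matched to the mouse Ensembl identifiers of the deposited count table, which gives 8 of the 56953 genes in it. The choice was made with results from these libraries in view. The p-values below come from fits over all genes, and counts over the 8 genes are descriptions.

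The libraries, 4 groups of 2, were made from the mouse colorectal carcinoma line CT26. Transplanted CT26 tumours received normal saline, a group whose label also reads WT, or mLJZD, a drug name that the labels do not spell out. CT26 cultures were kept for 48 hours with 10% control serum or with 10% serum that contained mLJZD. All groups share the CT26 line, and the tumours also hold cells of the host mouse, of unstated strain and age. Nothing in the labels says that the 2 libraries of a group came from separate animals or cultures, so the spread behind the p-values may be technical. Library totals lay between 16594912 and 29363861 counts. Levels are counts scaled to the library total (CPM). Comparisons between genes use CPM per kilobase of the longest transcript.

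A keratin filament is built from pairs of a type I and a type II keratin. Krt18, Krt19 and Krt20 are type I, and Krt7 and Krt8 are type II. Krt8 and Krt18 are the usual partners in simple epithelia such as the gut lining, Krt19 is common in ducts and crypts, Krt7 is a keratin of ducts and glands, and Krt20 marks differentiated intestinal epithelium. Cdh1 encodes E-cadherin of the adherens junction, Cdh17 encodes liver-intestine cadherin, and Epcam encodes a surface adhesion protein of epithelial cells. Krt7, Krt8 and Krt18 lie on mouse chromosome 15 and Krt19 and Krt20 on chromosome 11, while Cdh17, Cdh1 and Epcam are on chromosomes 4, 8 and 17. In the RefSeq gene table for GRCm38.p6, Krt8 and Krt18 are near neighbours, with only 2 genes between them, Gm36026 and Gm41404.

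The sequences before the start sites of Krt8, Krt18 and Krt20 are shown because these 3 keratins all fell in the mLJZD tumours, while in culture Krt20 was called higher and the others were not called. Each is the 250 bases before the start site from the RefSeq table of GRCm38.p6, 5′ to 3′ on the strand of the gene, and the count table itself carries no coordinates. Capitals mark matches to the motifs searched. The Krt8 sequence is chr15:102004343-102004592 on the minus strand, that of Krt18 is chr15:102027966-102028215 on the plus strand, and that of Krt20 is chr11:99438154-99438403 on the minus strand.
Krt8: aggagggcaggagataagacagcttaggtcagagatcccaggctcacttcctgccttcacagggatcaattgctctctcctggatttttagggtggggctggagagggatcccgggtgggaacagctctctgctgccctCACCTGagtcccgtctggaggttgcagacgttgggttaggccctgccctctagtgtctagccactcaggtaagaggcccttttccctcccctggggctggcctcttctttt
Krt18: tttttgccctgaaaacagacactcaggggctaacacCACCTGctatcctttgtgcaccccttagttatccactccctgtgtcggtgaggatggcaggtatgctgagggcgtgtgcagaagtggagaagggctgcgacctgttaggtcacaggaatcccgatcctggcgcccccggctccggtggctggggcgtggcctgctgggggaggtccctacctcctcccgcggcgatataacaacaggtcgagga
Krt20: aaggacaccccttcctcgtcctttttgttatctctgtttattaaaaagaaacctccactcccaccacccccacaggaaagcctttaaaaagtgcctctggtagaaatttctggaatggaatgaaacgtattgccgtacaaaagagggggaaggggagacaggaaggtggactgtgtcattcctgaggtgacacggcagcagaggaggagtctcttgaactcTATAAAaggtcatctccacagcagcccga

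On both strands, 5 motifs were searched: the TATA box TATAAA, the GC box GGGCGG, the CCAAT box CCAAT, the AP-1 site TGANTCA and the E-box CACCTG, a sequence that repressors of the Snail and Zeb families recognise. Krt8 and Krt18 each held 1 E-box, whose first base was 111 and 214 bases before the start, and neither held any of the other 4 motifs. Krt20 held no E-box and 1 TATA box, 29 bases before the start. Of all 32851 promoter windows of this length, 17.2% held the E-box and 12.4% the TATA box. Krt7 and Epcam also had a promoter entry, 5 of the 8 genes in all. Krt7 held 1 E-box and 4 GC boxes, a motif found in 32.7% of windows, and Epcam held 2 E-boxes and 1 GC box. The CCAAT box (33.8% of windows) and the AP-1 site (6.75%) were in none of the 5. A match describes letters and says nothing of binding.

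Krt20 (ENSMUSG00000035775) had the highest level of the 8 genes in every group. It was counted at 276 and 271 CPM in the saline tumours, 175 and 176 in the mLJZD tumours, 146 and 141 in the control cultures, and 207 and 208 in the mLJZD cultures. The 4 groups did not overlap, and the drug groups lay below their controls in tumours and above them in cultures. In tumours Krt20 fell 1.56-fold, with a log2 fold change of -0.61 (SE 0.05, adjusted p = 7.90e-08). In cultures it rose 1.44-fold, with a log2 fold change of 0.47 (SE 0.07, adjusted p = 5.63e-05). The interaction over all 8 libraries, which tests the tumour effect against the culture effect, was -0.996 on the log2 scale (SE 0.08, adjusted p = 4.21e-08). Between the controls, Krt20 was 1.91-fold higher in the saline tumours than in the control cultures (log2 0.77, SE 0.05, adjusted p = 1.19e-07).

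Krt18 (ENSMUSG00000023043) showed a larger drop in the tumours. Its counts were 327 and 312 in the saline tumours and 34 and 37 in the mLJZD tumours, or 16.6 and 15.8 CPM against 1.86 and 2.23 CPM. That is 7.92-fold lower with mLJZD, a log2 fold change of -2.96 (SE 0.17, adjusted p = 5.91e-10), and the groups were far apart. In culture the levels were 39.0 and 30.9 CPM with control serum and 32.0 and 29.2 CPM with mLJZD serum, which overlap. The culture log2 fold change was -0.25 (SE 0.12, adjusted p = 0.0933) and did not pass the test. The tumour effect differed from the culture effect by -2.62 on the log2 scale (SE 0.22, adjusted p = 8.65e-08). Krt18 in saline tumours was already 2.16-fold below the control cultures (log2 -1.27, SE 0.12, adjusted p = 3.66e-06), and in the mLJZD tumours its mean was 15.0-fold below the mLJZD cultures, a pair of groups that was not tested. In bulk tissue, fewer cells of a type and less RNA per cell cannot be told apart. The summed level of 10 skeletal muscle markers was 5.88-fold lower in the same mLJZD tumours, and its part in the Krt18 and Krt8 results was not tested.

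Krt8 (ENSMUSG00000049382), the type II partner of Krt18, also fell in the tumours but from a much lower level. It had 47 and 65 counts in the saline tumours and 5 and 6 in the mLJZD tumours, or 2.39 and 3.28 CPM against 0.273 and 0.362 CPM. The mean was 8.94-fold lower with mLJZD (log2 -3.11, SE 0.43, adjusted p = 2.27e-05). Krt8 passed the filter on low counts there only through the saline tumours, so this p-value is a description. The call was lost without mLJZD tumour 1 (log2 -2.93). The cultures had between 6 and 10 Krt8 counts per library, with overlapping levels of 0.427 and 0.451 CPM in control serum and 0.489 and 0.204 CPM in mLJZD serum. The culture log2 fold change was -0.46 (SE 0.68, adjusted p = 0.600), and a difference was not detectable at this depth. The mLJZD tumours thus had Krt8 at a level that overlapped the cultures with mLJZD serum, while the saline tumours were 6.46-fold above the control cultures (log2 2.52, SE 0.37, adjusted p = 9.87e-05). Against the control cultures and in the interaction, Krt8 again passed the filter only through the saline tumours, and these p-values are descriptions too. The interaction for Krt8 was -2.56 (SE 0.80, adjusted p = 0.0147). It lost its call when 1 library was left out in 3 cases: saline tumour 2 (adjusted p = 0.0759), mLJZD tumour 1 (0.0654) and mLJZD culture 1 (log2 -1.89, adjusted p = 0.128).

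The other type I keratin, Krt19 (ENSMUSG00000020911), was found almost only in the cultures. It had 38 and 29 counts with control serum and 3 and 11 with mLJZD serum, or 1.62 and 1.31 CPM against 0.147 and 0.375 CPM. It passed the filter on low counts only through the control cultures. It was 5.62-fold lower with mLJZD serum (log2 -2.45, SE 0.57, adjusted p = 0.00210), a p-value that is therefore a description. The size rests on single libraries, with -3.32 without mLJZD culture 2 (adjusted p = 0.00439) and -2.01 without mLJZD culture 1 (0.0313). The 4 tumour libraries held 2, 1, 1 and 0 counts, which is at or under the floor of 3 counts per group, and Krt19 was not tested between the tumour groups. The saline tumours were 19.3-fold below the control cultures, with a 95% counting interval of 6.34 to 96.1-fold (log2 -4.33, SE 0.57, adjusted p = 3.97e-05). Krt19 passed the filter in that comparison only through the control cultures, so its adjusted p is a description. Intervals here cover counting error only.

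Krt7 (ENSMUSG00000023039), the type II keratin of ducts and glands, was low in every library. The saline tumours held 4 and 4 counts, the mLJZD tumours 0 and 2, the control cultures 24 and 23, and the mLJZD cultures 12 and 28. Saline tumours lay 5.09-fold below the control cultures (log2 -2.47, SE 0.47, adjusted p = 0.00063). Krt7 passed the filter on low counts in that comparison only through the cultures, so this p-value is a description. With mLJZD serum the culture level was 0.587 and 0.954 CPM against 1.02 and 1.04 CPM, a log2 fold change of -0.45 (SE 0.49) that did not pass the test (adjusted p = 0.468). In the tumours Krt7 was below the filter on low counts. The ratio of saline over mLJZD tumours was 3.36, with a counting interval from 0.706 to 34.2 that includes no change.

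Among the adhesion genes, Cdh17 was higher with mLJZD in both materials. Cdh17 (ENSMUSG00000028217) had 23 and 20 counts in the saline tumours and 51 and 53 in the mLJZD tumours, or 1.17 and 1.01 CPM against 2.78 and 3.19 CPM. In the cultures it was at 4.14 and 4.91 CPM with control serum and at 11.2 and 9.77 CPM with mLJZD serum. In both materials the drug groups were above their controls without overlap. Cdh17 rose 2.74-fold in tumours (log2 1.48, SE 0.31, adjusted p = 0.00132) and 2.31-fold in cultures (log2 1.15, SE 0.19, adjusted p = 0.000112). The tumour call was lost without mLJZD tumour 1 (adjusted p = 0.0628) or 2 (0.0557). The difference between these effects was 0.42 (SE 0.33, adjusted p = 0.343) and did not pass the test. Saline tumours were 4.16-fold below the control cultures (log2 -2.21, SE 0.27, adjusted p = 2.08e-05).

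Cdh1 (ENSMUSG00000000303) was counted in every tumour library and in 1 culture library. The saline tumours had 58 and 65 counts (2.95 and 3.28 CPM) and the mLJZD tumours 87 and 66 (4.75 and 3.98 CPM). The mLJZD libraries were the higher ones, but the log2 fold change of 0.52 (SE 0.22) did not pass the test (adjusted p = 0.0868). In culture, 1 mLJZD library held 2 counts and the other 3 libraries held 0. Against the floor of 3 counts over the control cultures, Cdh1 was at least 47.4-fold higher in the saline tumours (adjusted p = 3.69e-06). Cdh1 passed the filter on low counts there only through the tumours, so this p-value is a description.

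Epcam (ENSMUSG00000045394) had 7 and 10 counts in the saline tumours, 16 and 6 in the mLJZD tumours and 0 in all 4 culture libraries. The tumour groups overlapped, at 0.355 and 0.505 CPM against 0.873 and 0.362 CPM. Epcam was below the filter in each of the 3 comparisons fitted on 4 libraries. Against the floor it was at least 6.54-fold higher in saline tumours than in control cultures and at least 10.2-fold higher in mLJZD tumours than in mLJZD cultures. A count of 0 over the control cultures allows up to 0.0658 CPM. Both cultures, labelled as colorectal cancer cells, were therefore without detected Cdh1 and Epcam beyond the 2 Cdh1 counts. Vimentin (Vim), a mesenchymal filament gene outside the naming rule, stood at 4281 and 4353 CPM in the control cultures. The list of 16 mesenchymal transition genes summed to 6197 to 6365 CPM there. In the saline tumours, where Cdh1 and Epcam were counted, that sum was higher, at 13073 to 13213 CPM.

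**Figure D1:**
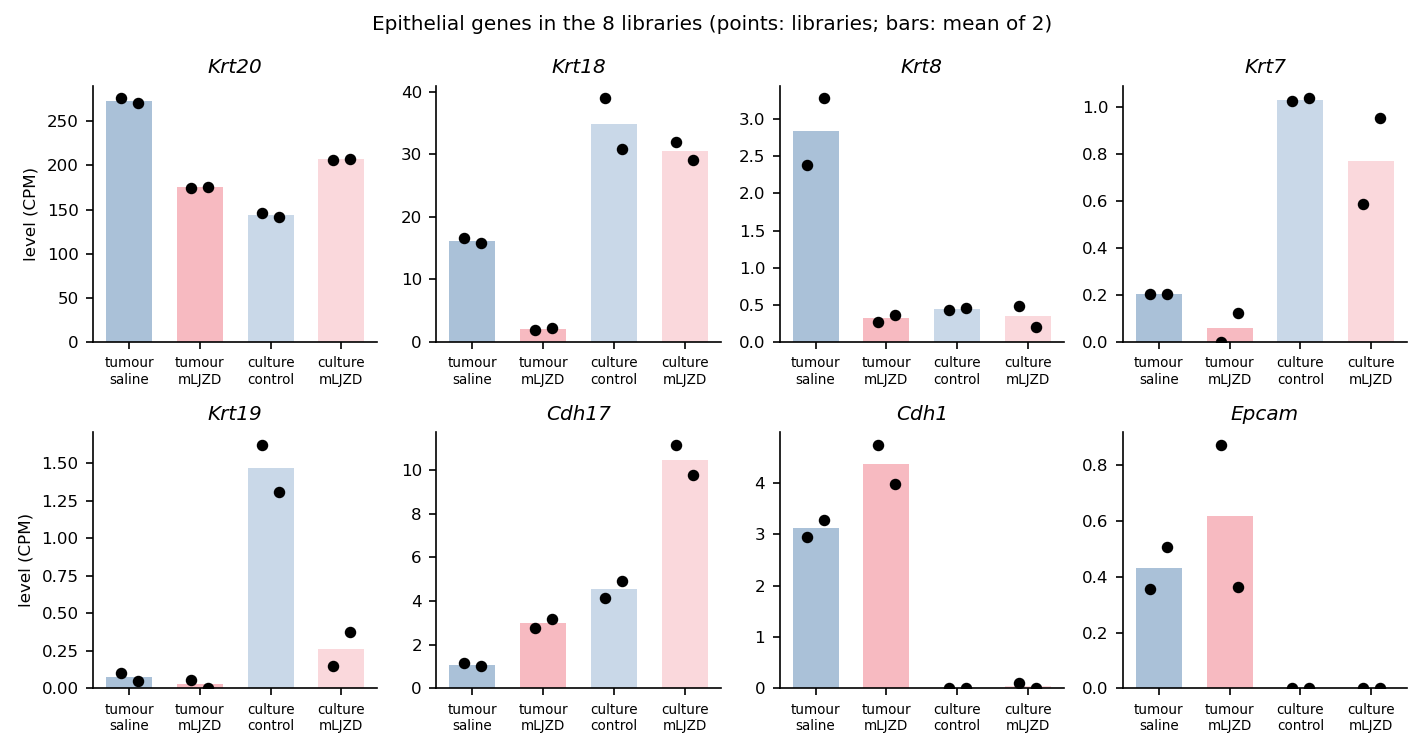
Level in CPM (vertical axis, each panel with its own scale) of the 8 genes in the 4 groups, with points for libraries and bars for the mean of 2. Krt18 and Krt8 are lower in the mLJZD tumours than in the saline tumours, Krt18 is highest in the cultures, Krt20 moves down in tumours and up in cultures, Cdh17 is above its control in both, and Cdh1 and Epcam are at or near 0 in the cultures.

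Read as a group, the 8 genes changed in both directions. In the tumours 5 of the 8 passed the filter and 4 of those were called, Krt8, Krt18 and Krt20 lower and Cdh17 higher, where 31.4% of all 15417 genes tested were called (15.4% higher and 16% lower). The median log2 fold change of the 5 was -0.61, against 0.00 over all genes. Krt8 passed the filter there only through the saline tumours, so the 4 calls are not read as a result. In the cultures 6 passed the filter and 3 were called, Krt20 and Cdh17 higher and Krt19 lower, beside 55.4% of 13299 genes (28.8% higher and 26.6% lower), and the medians were -0.35 and -0.01. Krt19 passed the filter there only through the control cultures, so the 3 calls are not read as a result either. With upper-quartile scaling the balance over all genes turned, from 3825 higher and 3540 lower to 3188 higher and 4398 lower. Between the untreated tumours and cultures all 7 genes that passed were called. Krt8, Krt20 and Cdh1 were higher and Krt7, Krt18, Krt19 and Cdh17 lower in the tumour. Of all 15332 genes tested 80.6% were called (44.9% higher and 35.7% lower). Cdh1 and Krt8 passed the filter only through the tumours, and Krt7 and Krt19 only through the cultures, so the number called is not read as a result. For the interaction, given next, Krt8 passed only through the saline tumours. The interaction could be given for the 4 genes above the floor in every group and was called for Krt8, Krt18 and Krt20, all lower, beside 44.4% of 16090 genes (23.8% higher and 20.5% lower). Without mLJZD tumour 1, 2 of the 8 genes were called in the tumours, Krt18 and Krt20, and Krt8 (log2 -2.93) and Cdh17 (log2 1.57) kept their direction.

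**Figure D2:**
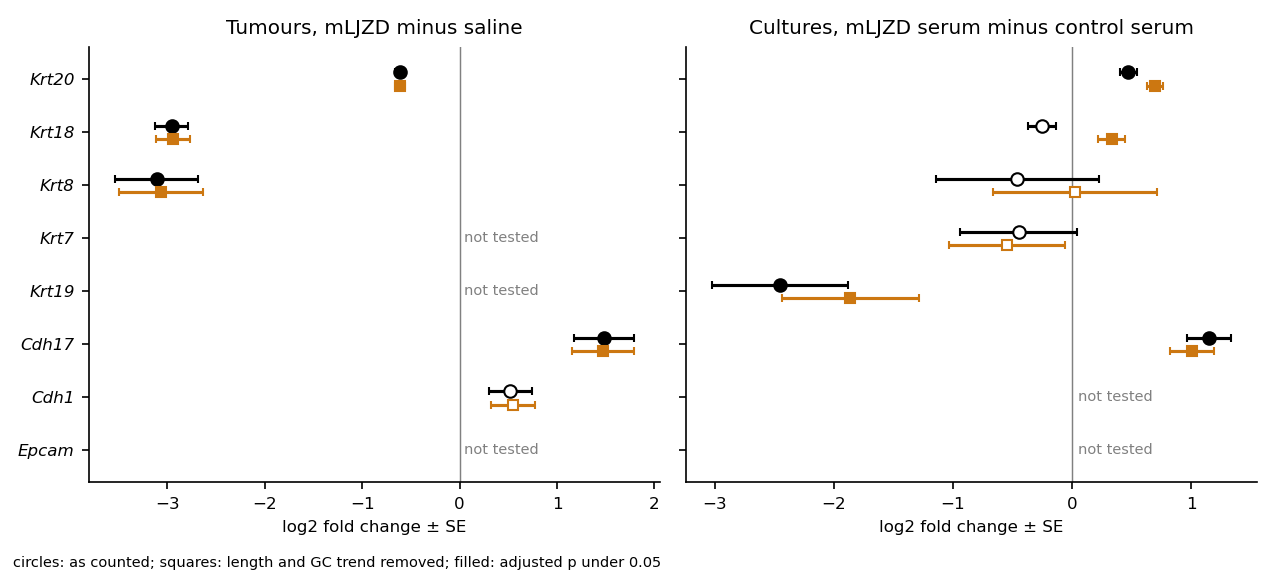
Log2 fold change ± SE (horizontal axis) of each gene with mLJZD in tumours (left) and cultures (right), as counted (circles) and with the length and GC trend removed (squares), filled where the adjusted p was under 0.05. The tumour values hardly move between the symbols, and in cultures Krt18 goes from -0.25 to 0.33.

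The culture comparison had a trend with transcript length that the tumour comparison did not share. Over protein-coding genes, the median change on the log2 scale in cultures was -0.76 where the longest transcript was under 1000 bases and climbed to 1.00 above 8000 bases. In tumours the same medians were 0.09 and -0.08. Between 1000 and 2000 bases, where Krt8 (1958 bases), Krt18 (1437), Krt19 (1576) and Krt20 (1927) lie, the culture median was -0.48 and 65.4% of genes were called lower against 2.01% higher. Krt20 rose against that background. When the trend with length and GC content was removed by offsets, Krt20 was at 0.70 (adjusted p = 2.68e-06), Krt19 at -1.86 (0.0194) and Cdh17 at 1.01 (0.000659), all with the same call. Krt18 turned from -0.25 to 0.33 and was then called higher (adjusted p = 0.0286), and Krt8 was at 0.03 (0.984), so the culture directions of Krt18 and Krt8 depend on this step. Krt18 in culture was also called lower when control culture 2 was left out (log2 -0.42, adjusted p = 0.00641), with upper-quartile scaling (-0.36, 0.0170) and with all 8 libraries in one fit (-0.33, 0.0239).

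**Figure D3:**
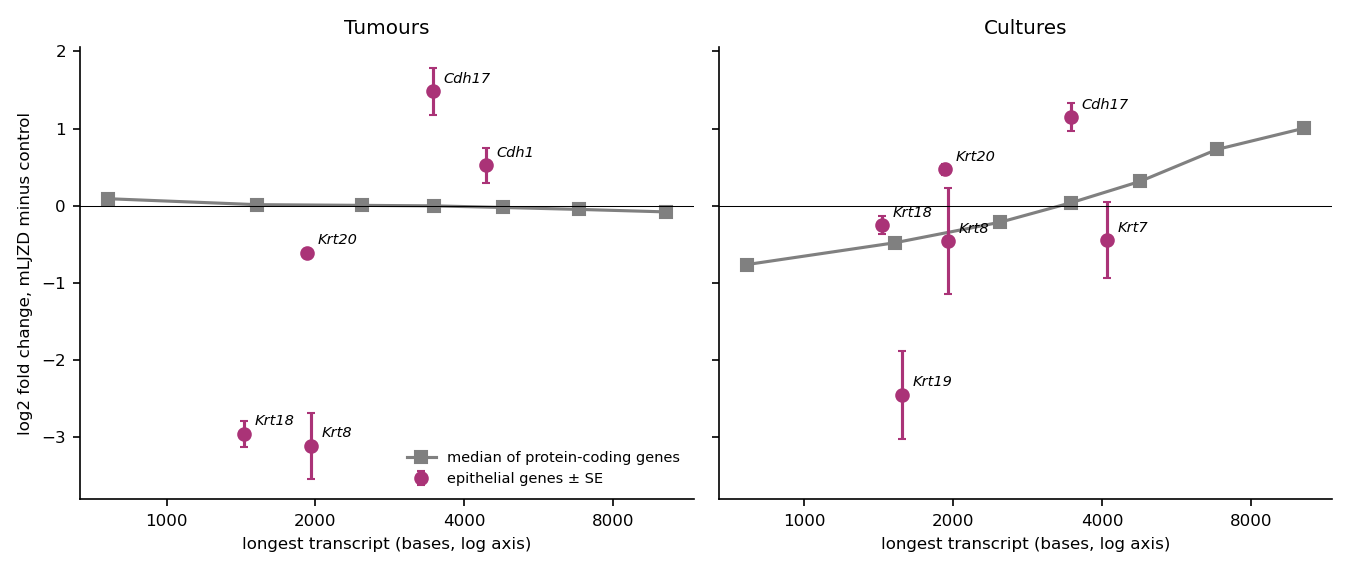
Log2 fold change with mLJZD (vertical axis) against the length of the longest transcript in bases (log axis), with grey squares for the median of protein-coding genes in length bins and purple points for the epithelial genes ± SE. The grey line is nearly flat in tumours and climbs from -0.76 to 1.00 in cultures, where Krt20 and Cdh17 lie above it and Krt19 below it.

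Set side by side per length, Krt20 and Krt18 led in all groups. In the saline tumours the order was Krt20 at 141.9 ± 2.09 CPM per kilobase (SD, n = 2), Krt18 at 11.3 ± 0.41, Krt8 at 1.45 ± 0.32, Cdh1 at 0.703 ± 0.054, Cdh17 at 0.315 ± 0.032 and Epcam at 0.211 ± 0.052. Krt7 and Krt19 came last and overlapped each other. In the mLJZD tumours Krt20 stood at 91.0 ± 0.41 and Krt18 at 1.42 ± 0.18, followed by Cdh1 at 0.985 ± 0.12 and Cdh17 at 0.863 ± 0.084, which overlapped. Krt8 had dropped to 0.162 ± 0.032 and overlapped Epcam at 0.303 ± 0.18. In the control cultures Krt20 was at 74.4 ± 1.68, Krt18 at 24.3 ± 4.01, Cdh17 at 1.31 ± 0.16 and Krt19 at 0.929 ± 0.14, with Krt7 and Krt8 below. With mLJZD serum, Krt20 was at 107.5 ± 0.45, Krt18 at 21.3 ± 1.41 and Cdh17 at 3.02 ± 0.28, while Krt7, Krt8 and Krt19 overlapped between 0.165 and 0.188.

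Of 52 keratin genes with a symbol in the table, 32 had any count. At least 10 counts in both libraries were reached by 5 keratins in the saline tumours, 4 in the mLJZD tumours, 10 in the control cultures and 6 in the mLJZD cultures. Krt8 was the keratin that dropped below this level in the mLJZD tumours, where Krt10, Krt18, Krt20 and Krt80 were left. Summed over all keratins, the level per length was 170.6 ± 1.67 in saline tumours, 106.5 ± 1.83 in mLJZD tumours, 113.0 ± 6.41 in control cultures and 141.4 ± 1.43 in mLJZD cultures. Krt20 made up 83.2% ± 0.41, 85.5% ± 1.09, 65.9% ± 2.25 and 76.0% ± 1.09 of these sums. The share of Krt18 was 6.60% ± 0.18 in saline tumours and 1.33% ± 0.15 in mLJZD tumours, against 21.4% ± 2.33 and 15.1% ± 0.84 in the cultures. Shares of one sum move against each other by construction.

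Krt18 and Krt8, which form one filament, were not in proportion. Per length, Krt18 exceeded Krt8 by 9.48 and 6.54 times in the saline tumours and by 9.27 and 8.40 times in the mLJZD tumours, with overlap between these groups. In culture the ratio was 125 and 93.3 with control serum and 89.2 and 195 with mLJZD serum, where Krt8 rests on 6 to 10 counts. The most abundant type II keratin was Krt80, a keratin outside the 8 genes, with 8.40% of the sum in saline tumours and between 7.07% and 10.4% in the other groups. All type I keratins together exceeded all type II keratins by 9.69 ± 0.78 times in saline tumours, 8.34 ± 0.91 in mLJZD tumours, 10.3 ± 0.83 in control cultures and 12.4 ± 0.25 in mLJZD cultures.

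**Figure D4:**
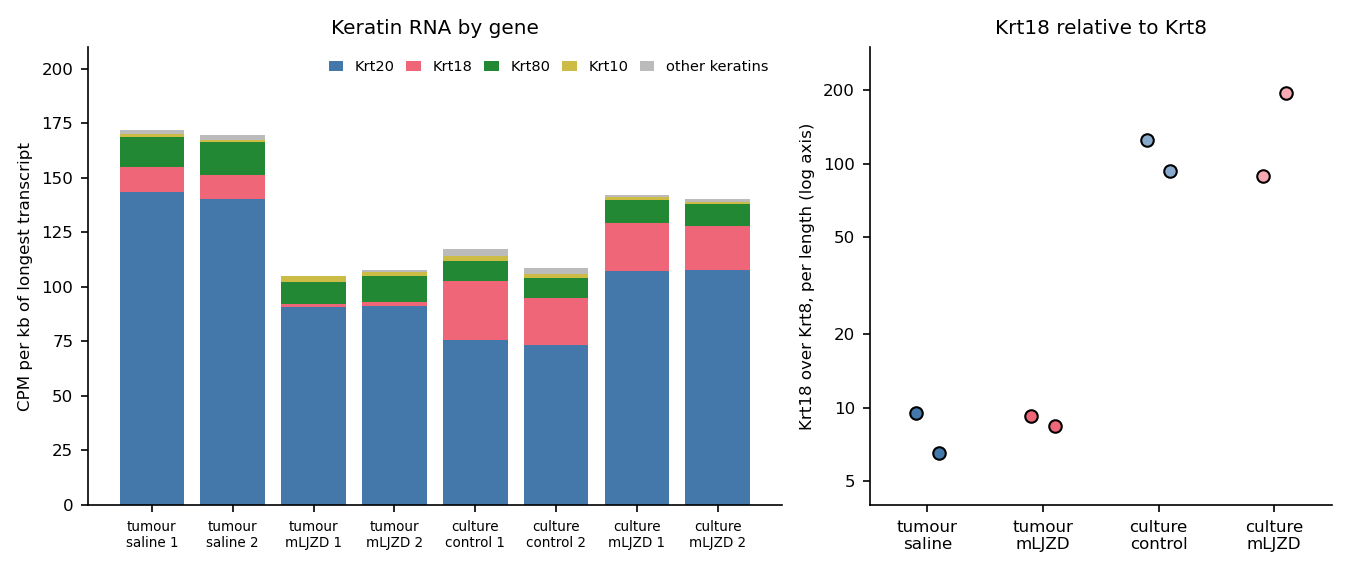
Left, keratin RNA in CPM per kilobase of the longest transcript in each library, stacked by gene. Right, Krt18 over Krt8 per length (log axis) in each library. Krt20 fills most of each bar, the Krt18 segment is smallest in the mLJZD tumours, and the ratio lies between 6.54 and 9.48 in tumours and between 89.2 and 195 in cultures.

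Near copies of these genes held no counts. At 90% identity or more over at least 200 bases, Krt18 matched the processed pseudogene Gm5200 (90.2% over 1269 bases) and Krt8 matched Krt8-ps (98.6% over 941 bases). Both had 0 counts in all 8 libraries. How multiply mapped reads were counted is not given, so whether these copies lowered the counts of Krt8 or Krt18 was not tested.

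Markers of other cell types moved with some of these results. Over all genes tested in the tumours, 15.4% were called higher and 16% lower with mLJZD, which is the background for the marker lists. The 10 skeletal muscle markers all fell in the mLJZD tumours, with a median log2 fold change of -2.50, and their summed level was 2870 to 2903 CPM in the saline tumours and 489 to 494 CPM in the mLJZD tumours, 5.88-fold lower. Myh4, the fast myosin heavy chain, was at -3.42 on the log2 scale, Actn3 at -3.26, Ckm at -3.02 and Pvalb at -2.89. The cultures held 1.23 to 3.20 CPM of these markers, and 6 of the 10 were at 0 in both control cultures.

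Leukocyte markers summed to 449 to 458 CPM in saline tumours and 426 to 443 CPM in mLJZD tumours, against 0.225 to 0.579 CPM in cultures. Of 8 tested, 4 were called higher and 1 lower with mLJZD, beside 15.4% and 16% of all genes. The higher ones included Cd79a of B cells (log2 1.76) and the neutrophil genes S100a9 (1.47) and S100a8 (1.38), and the lower one was the macrophage receptor Csf1r (-0.25). The dendritic sum was 27.7 to 31.2 CPM in saline tumours, between 36.0 and 36.8 CPM in those given mLJZD, and 1.75 to 3.42 CPM in cultures, with 2 of 7 called higher, Flt3 (1.19) and Itgax (0.42). Cdh1 and Epcam were found in the material that holds these host cells and were at or near 0 in the cultures, where 8 of the 10 leukocyte markers had no count in either control library. The part of host cells in their levels was not tested. Cd207, which marks Langerhans cells, had 1 count in each tumour library.

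Skin and gland markers gave the following values. The keratinocyte list summed to 203 to 210 CPM in saline tumours and 248 to 252 CPM in mLJZD tumours, of which the galectin Lgals7 made up 202 ± 4.86 and 243 ± 2.91 CPM. It rose by 0.30 on the log2 scale, and Krt10 rose by 0.81. The defining keratins Krt5, Krt14 and Krt1 were at 0 in the saline tumours, while Krt14 had 1 and 4 counts in the mLJZD tumours. Of the 18 markers, 13 were at 0 in both saline tumour libraries. Trp63, a regulator on the same list, was at 1.39 CPM in the saline tumours and 0.0676 CPM in the control cultures. The mammary list summed to 13.7 to 16.9 CPM in saline tumours and 19.3 to 25.4 CPM in mLJZD tumours, with Areg (1.61) and Ltf (1.67) higher, Csn3 lower (-1.78), and the milk genes Csn2 and Wap at 0 in all libraries. Of the mesothelial list, Msln made up nearly all: it was at 64.6 ± 2.35 CPM in saline tumours and 89.6 ± 9.15 CPM in mLJZD tumours, a rise of 0.50, and at 472 CPM in both control cultures.

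**Figure D5:**
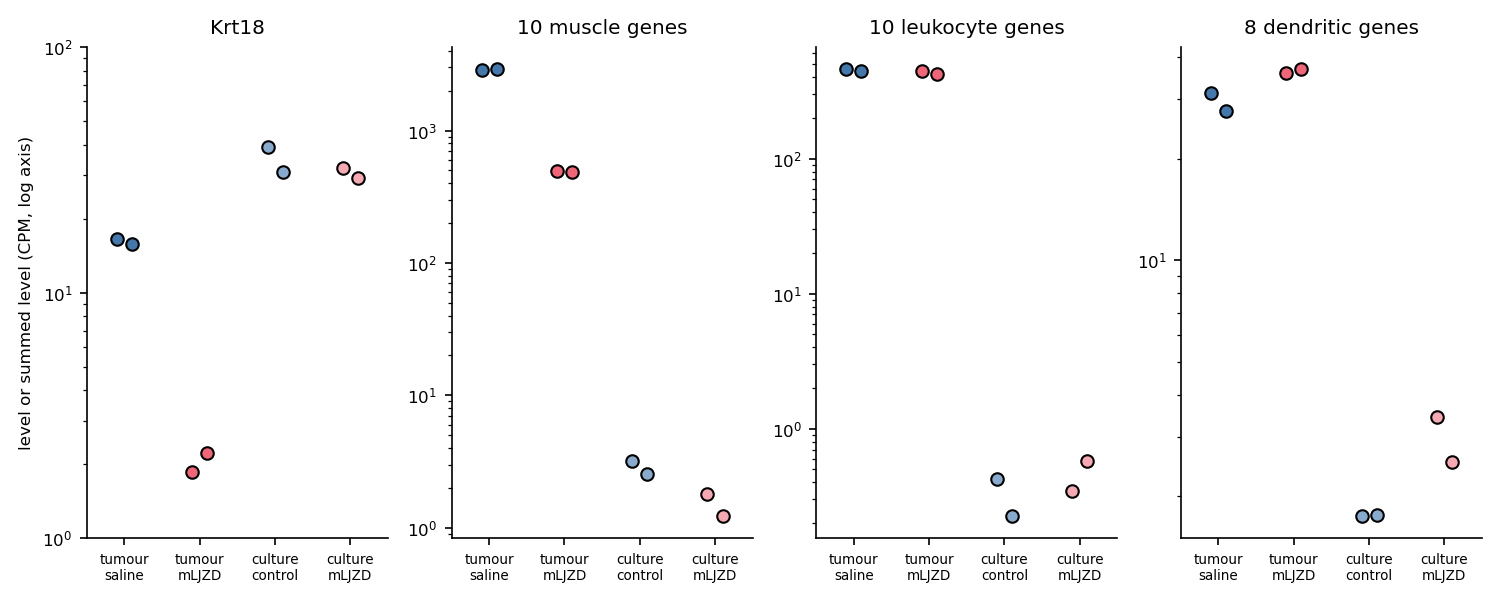
Krt18 and the summed levels of muscle, leukocyte and dendritic markers in CPM (log axes) in each library. Krt18 and the muscle sum are both lower in the mLJZD tumours than in the saline tumours, the leukocyte sums differ little between the tumour groups, and all 3 marker sums are lower in the cultures than in the tumours.

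Other genes of epithelial structure were called in both directions in the tumours, where 15.4% of all genes tested were called higher and 16% lower. The small lists that follow are read against these shares, and none is singled out from them. Among other keratins in the tumours, 2 were tested: Krt10 rose (log2 0.81, adjusted p = 0.00860) and Krt80 fell (-0.34, adjusted p = 0.00134). Of 14 adherens junction partners 2 rose and 1 fell, a smaller share than the 31.4% called over all genes: P-cadherin (Cdh3) by 1.49 and Ajuba by 0.22, with the nectin Nectin1 at -0.36. Among the 10 tight junction genes and Epcam partners tested, the claudin Cldn12 rose (0.58). Of 6 desmosome and keratin linker genes, the desmocollin Dsc2 rose (0.72), while the cytolinkers Dst (-0.52) and plectin, Plec (-0.25), fell. With the length and GC trend removed, Nectin1 and Plec were no longer called.

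Regulators and gut genes in the tumours were mostly untested for low counts. Of 24 genes on the epithelial regulator list 7 were tested, and the Krüppel-like factors Klf5 (0.64) and Klf4 (0.44) rose. Prom1, on that list but not a transcription factor, fell (-2.05) at under 1 CPM, a gene named after its value was seen. Of 28 intestinal epithelial genes 6 were tested and 2 fell, the water channel Aqp8 (-1.43) and the tetraspanin Tspan8 (-1.26). The sum of that list was 85.4 to 86.9 CPM in saline tumours and 77.6 to 81.0 CPM in mLJZD tumours, most of it Ceacam1, which had 68.2 CPM in saline tumours. Of 16 mesenchymal transition genes 8 rose and 2 fell, among them Foxc2 (0.83), Cdh11 (0.83), Zeb2 (0.34) and Tcf4 (-0.39).

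In the cultures, where 28.8% of all genes tested were called higher and 26.6% lower, 3 of 5 other keratins were lower with mLJZD serum, and 1 after the length and GC trend was removed. Krt10 stood at -0.84 on the log2 scale (adjusted p = 0.0143), and -0.50 (0.148) after removal. Krt13 (-2.73) and Krt86 (-2.02) were the others, both under 1 CPM and named after their values were seen, and Krt13 kept its call at -2.26 (adjusted p = 0.0333). Tight junction genes rose before and after removal: Tjp1 by 1.42 and 0.67, the polarity gene Pard3 by 0.73 and 0.32, and Cldn12 by 0.56 and 0.36. Of 10 adherens junction partners 5 rose and 2 fell, and 4 and 2 after removal. They included vinculin, Vcl (1.76 and 1.30), afadin, Afdn (1.03 and 0.25), and Nectin2 (-0.81 and -0.45).

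Klf5 rose in culture (0.47), the only epithelial regulator of 6 tested to be called, with 2 called after removal. Of the intestinal genes 3 were tested, with adjusted p of 0.561 for Aqp8, 0.664 for Lgals4 and 0.722 for Ceacam1. That list was near absent in culture, at 4.70 to 5.18 CPM with control serum, with 16 of 28 genes at 0 in both libraries. The villin gene Vil1, a defining gene of gut epithelium, had 2 and 1 counts there, while the gut regulator Cdx2 had 11 and 10. Of 15 mesenchymal genes 7 rose and 7 fell, or 4 and 5 after removal, with Fn1 (1.39 and 0.72), Zeb1 (1.05 and 0.45) and S100a4 (-1.10 and -0.66) called in both fits.

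Between the untreated materials, 44.9% of all genes tested were higher and 35.7% lower in the saline tumours, which is the background for the lists. Of 13 adherens junction partners tested 10 were higher and 3 lower as counted, but 6 and 6 with the length and GC trend removed, and their median went from 0.51 to 0.05. Of 10 tight junction genes tested 7 were higher and 1 lower, or 6 and 2 with the trend removed, with F11r (JAM-A) at 13.4 CPM against 0.200 CPM and the serine protease St14 at 2.05 against 0.0451 CPM. Of 7 desmosome and linker genes 5 were higher and 1 lower, or 4 and 2 with the trend removed, and Dsc2 was at 7.47 CPM in saline tumours and had no count in control cultures. Dst, higher at 1.36 on the log2 scale, was lower at -0.40 after the length and GC trend was removed. Genes with no count in the control cultures passed the filter only through the tumours. Nectin3, Tjp3 and Dsc2 of the junction and desmosome lists were such genes, and Nectin4, F11r and St14 were near 0 there. Car4, Ptprc, Xcr1 and Myh4 of the intestinal, leukocyte, dendritic and muscle lists also had no count. The numbers called higher in all these lists are therefore not read as a result. Of 7 epithelial regulators tested 3 were higher and 3 lower, or 3 and 4 with the trend removed. Trp63 was among the higher ones (4.13), at 1.39 CPM against 0.0676 CPM in the control cultures. Grhl1 (-2.69), Gata4 (-1.37) and Klf5 (-0.68) were the lower ones as counted.

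For each gene, protein-coding genes with the most similar pattern, up to 3, were found by Pearson's r of log2 CPM over the 8 libraries, among 13005 candidates. These values are descriptions, since the libraries form 4 groups and share depth and material. Krt18 was most like Myh14 (r = 0.995), Zfp978 (0.992) and Ung (0.992), and Krt8 most like Banp (0.983), Mettl21c (0.971) and Tef (0.970). Krt20 was nearest to Cadm1 (0.976), Runx3 (0.970) and Epn2 (0.969), and Krt19 to Cox6c (0.995), Yeats4 (0.993) and Eef1akmt4 (0.991). Krt7 was nearest to Tada2a (0.987), Prim1 (0.985) and Tatdn1 (0.985). Among the adhesion genes, Cdh17 was nearest to Kdm1a (0.997) and Epha2 (0.989), and Cdh1 to Fcrlb (0.999), Sod3 (0.999) and Aspn (0.999). Epcam was nearest to Spic (0.996), Cyp4b1 (0.995) and the desmoglein Dsg2 (0.995).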

How the data were processed

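The deposited table holds the authors' raw counts for 8 libraries. The submitters' processing notes name featureCounts 2.0.3, SAMtools 1.14, HISAT2 2.2.1, FastQC 0.12.1 and Trim Galore, and the build GRCm39. Which annotation release and strand setting were used, and how multiply mapped reads were counted, is not given in the sources used here. Symbols were matched by identifier (4924 of 56953 genes were not named), and transcript lengths came from GENCODE M21. The chromosomes of the 8 genes and the promoters came from RefSeq for GRCm38.p6.

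CPM and log2 fold changes were computed from the deposited counts. The test was the two-sided quasi-likelihood F test of edgeR 4.0.16 (R 4.3.3), with TMM scaling and filterByExpr. P-values were adjusted by Benjamini-Hochberg over every gene in a fit, and a gene with an adjusted p under 0.05 is called. Each 2-group comparison used its own 4 libraries, and the interaction used 8. An SE is the log2 fold change over the square root of F. An exact permutation test of 2 libraries against 2 cannot give a two-sided p under 0.333. A group at 3 counts or fewer was at the floor. The members and the 13 gene lists were chosen with earlier results of these data known. Beside the members, the text names up to 4 called genes per list with the largest change and at least 1 CPM in the higher group. The scripts were tested on simulated data.

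Replicate pairs differed by more than counting noise, with a chi-square per degree of freedom of 2.69 to 11.6, so no library was counted as a duplicate. Alternatives were DESeq2 1.42.0, library totals or upper-quartile scaling without TMM, no filter, a replicate block, removal of the trend with length and GC content, all libraries in one fit, and leaving out each library. Of the list symbols, Krt85 and Eppk1 matched no gene. A few genes that the naming rule covers are not reported here.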

Additional observations from a re-analysis of the deposited data

Results flagged for a closer look

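The mLJZD effect on 3 of the genes differed between tumours and cultures by edgeR's interaction test over 8 libraries. For Krt18 the tumour effect minus the culture effect was -2.62 on the log2 scale, for Krt8 it was -2.56 and for Krt20 it was -0.996. The Krt8 value is the least firm: it has an SE of 0.80 and lost its call when certain single libraries were left out. Of all 16090 genes in this test, 44.4% were called. Krt18 and Krt8 fell in the tumours while their culture changes did not pass the test, and Krt20 fell in the tumours and rose in the cultures.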

How the results depend on the processing

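The 22 log2 fold changes of the 8 genes were computed under 291 combinations of gene and alternative: 277 kept direction and side of the threshold, 6 lost their call, 3 gained one and 5 reversed. All 5 reversals were in the cultures. With the length and GC trend removed Krt8 was at 0.026 and Krt18 at 0.33, with the replicate block added at 0.012 and 0.34, and leaving out 1 library in turn took Krt8 from -1.14, without mLJZD culture 1, to 0.11, without mLJZD culture 2. In the tumours, leaving out 1 library in turn gave 1087 to 3536 called genes, against 4835 with all, with 1087 without mLJZD tumour 1 and 1974 without mLJZD tumour 2, and 2 to 4 of the 8 genes called. For the other comparisons these ranges were 6358 to 6889 genes in cultures (3 to 4 of the 8), 10714 to 12285 between the controls (7 to 8) and 5872 to 7200 for the interaction (2 to 3). The lone library of a group is there assumed to vary like the others. The cause was not tested. The median of all genes moved from -0.01 to -0.12 in cultures with upper-quartile scaling, from 0.15 to 0.31 (library totals) or -0.24 (trend removed) between the controls, and from 0.07 to -0.09 (library totals) for the interaction. Among called genes the higher share went from 55.7% to 39.9% between the controls with the trend removed and from 53.7% to 39.7% for the interaction with library totals. Genes with few counts, Krt7, Krt8, Krt19 and Epcam, are limited by depth.

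The replicate numbers were treated as names of libraries, and the labels do not say whether they pair libraries across groups. Same-numbered libraries deviated together at r = -0.106 in tumours and 0.0226 in cultures. With 2 libraries per group these values cannot show whether a pairing or batch exists. With a replicate block, 4461 genes were called in tumours, 7343 in cultures, 12125 between the controls and 7024 for the interaction. For the controls a block within each material left no residual degrees of freedom, so 1 number was shared by both. Crossing the numbers, chosen after seeing the data, gave 5411 called genes in tumours.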
